A study of Mus musculus with 4 samples.

Results

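The hedgehog ligand Shh, its receptors and surface partners Ptch1, Smo, Hhip, Gas1 and Boc, and the transcription factors Gli1, Gli2 and Gli3 were examined in bulge cells, the keratinocytes of the follicle where its stem cells reside. These 9 genes were taken by name from the 55536 genes of the count table, and 8 of them, all except Shh, had enough reads to be tested among 14259 genes. RNA was sequenced from 4 samples of mouse skin on a C57BL/6 background. The 2 knockout samples came from mice carrying Cdh5CreERT2, a tamoxifen-activated Cre under an endothelial promoter, and floxed alleles of Alk1, a receptor of blood endothelium. The 2 control samples came from Cre-negative littermates. Mice of both groups were injected with tamoxifen (100 µg per g of body weight) at postnatal day 17 and sampled at postnatal day 20. Cre was directed at endothelium and not at the bulge cells themselves. The titles speak of mice in the plural, and no source used here says whether a library holds more than 1 animal. The p-values therefore measure the spread between these samples, which may be partly technical. The series asks about endothelial Alk1 and the timing of stem cell activation.

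Hedgehog ligands bind PTCH1, a membrane protein that otherwise keeps SMO inactive. Freed SMO acts through the primary cilium to shift GLI2 and GLI3 from repressor to activator forms. GAS1, BOC and CDON help the ligand reach PTCH1, and HHIP binds and sequesters it. Gli1, Ptch1 and Hhip are themselves switched on by the pathway in many tissues, so their transcripts are commonly read as its output. In the follicle, SHH is made by transit-amplifying cells of the growing follicle and by sensory nerves around the upper bulge, and it is required for follicle growth.

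The libraries held between 16326906 and 29130974 counts. Markers of bulge keratinocytes were high in each of them: the keratin Krt15 measured 35985 and 34755 CPM (counts scaled to a common normalised library size) in knockouts, against 29062 and 34366 CPM in controls. The surface marker Cd34 measured 1804 and 1327 CPM in knockouts and 1584 and 1947 CPM in controls. Over all genes, edgeR's quasi-likelihood test called 1 of 14259 genes at an adjusted p under 0.05, that is 0.00701%. It was Rps26-ps1, a pseudogene copy of a ribosomal protein gene, named after its values were seen and uncertain because reads can be shared between copies. It was higher in knockouts, with 63.0 and 63.0 CPM against 1.08 and 1.49 CPM in controls.

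None of the 8 tested hedgehog genes passed that test, where 0.00701% of all genes did, and 1 of the 8 (Boc) had an unadjusted p under 0.05. Among all genes, 5.94% had an unadjusted p under 0.05 with a lower value in knockouts and 4.8% with a higher one. DESeq2, which called 0.802% of all genes, also called 0 of 8 members. So did limma-voom, and so did edgeR with replicate numbers as a block, which called 0.743% of all genes (0.568% lower). Without a count filter edgeR called 0 of 9, against 0.678% of all genes higher and 1.11% lower. Of the 8 log2 fold changes (knockout over control), 6 were below 0, with a median of -0.24, while 7489 of 14259 tested genes were below 0, with a median of -0.02. The members' median was 0.10 without knockout 1 and -0.59 without knockout 2, so its direction depended on 1 library. The widest 95% interval was that of Gli1, from -1.02 to 0.67.

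The ligand itself was at the limit of detection. Shh (ENSMUSG00000002633, chromosome 5, 28456815 to 28467256, GRCm38) had 0 and 0 counts in knockouts and 0 and 1 counts in controls. A count of 0 allows up to 0.138 and 0.144 CPM in knockout 1 and 2 and up to 0.179 CPM in control 1, taking 3 counts as the floor and covering counting error only. The other hedgehog ligands were also low. Dhh averaged 0.683 CPM in knockouts and 0.663 CPM in controls, and Ihh averaged 0.189 CPM in knockouts and 0.0598 CPM in controls.

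Per kilobase of exon, the order of the members by level was Gas1, Boc, Smo, Gli1, Gli2, Gli3, Ptch1, Hhip and Shh. Gas1 averaged 265 CPM per kilobase over the 4 libraries, at the 99.1st percentile of tested genes, and Boc 110 (97.5th percentile). Smo averaged 37.5 CPM per kilobase, Gli1 10.6, Gli2 8.81, Gli3 4.52, Ptch1 4.46 and Hhip 0.528. Gli1 and Gli2 overlapped across libraries and stood in that order in 3 of 4, and so did Gli3 and Ptch1. The other neighbours in this order did not overlap in these libraries. Gas1, Boc and Smo were thus the most abundant transcripts of the set. Ptch1 stood close to Gli3, Hhip stood below the GLI factors, and the ligand was the rarest. The level of Ptch1 depended on the length used. Its longest transcript has 10383 bases, against 14185 for the union of its exons, and over the former it averaged 6.10 CPM per kilobase. The other values here are over the union of exons. The longest transcript of Gli3 is also shorter, with 8170 bases against 9589, so 6.10 cannot be ranked against them.

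**Figure D1:**
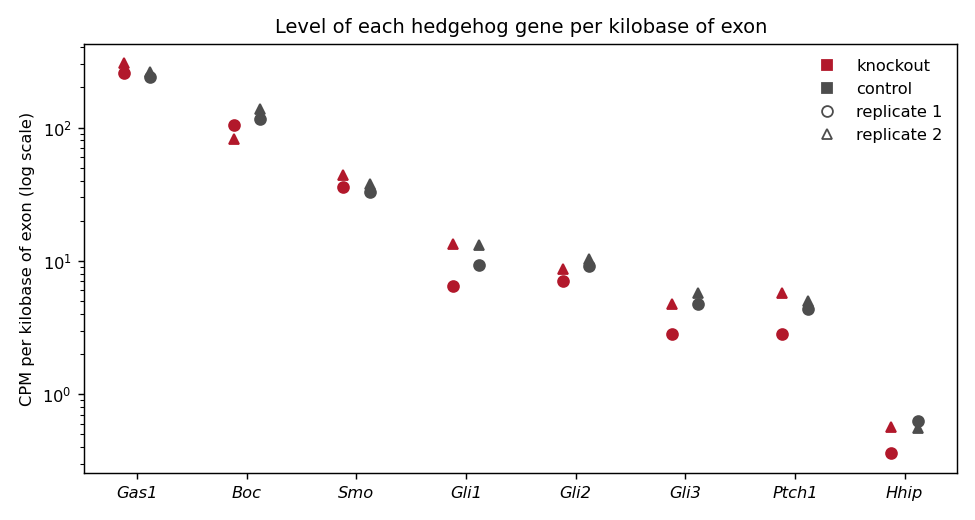
Level of 8 hedgehog genes in CPM per kilobase of exon (log axis), with 1 point per library, knockouts left of controls for each gene. Gas1 (mean 265) and Boc (110) stand highest and Hhip (0.528) lowest, while the points of Gli1 and Gli2, and those of Gli3 and Ptch1, overlap. Shh, with 1 count in all, is not drawn.

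Among receptors, Smo, the transmembrane activator of the pathway (ENSMUSG00000001761, chromosome 6, 29735503 to 29761365), measured 200 and 246 CPM in knockouts against 184 and 214 CPM in controls. The groups overlapped. Its log2 fold change was 0.17 ± 0.15 (SE; edgeR adjusted p = 0.70), with a 95% interval from -0.21 to 0.54, and it ranged from 0.011 to 0.31 with each library left out.

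Ptch1, the receptor (ENSMUSG00000021466, chromosome 13, 63508328 to 63573598), measured 39.9 and 81.1 CPM in knockouts against 61.7 and 70.7 CPM in controls. The knockouts held both the lowest and the highest value, and both controls lay between them. Ptch1 had a log2 fold change of -0.13 ± 0.32 (edgeR adjusted p = 0.89; 95% interval -0.90 to 0.64). It was 0.29 without knockout 1 and -0.73 without knockout 2, neither of which passed, so the sign was set by which knockout library was kept.

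Hhip, the ligand-binding inhibitor (ENSMUSG00000064325, chromosome 8, 79965851 to 80058006), was rare, with 71 and 108 counts in knockouts and 95 and 149 counts in controls. That is 3.26 and 5.17 CPM in knockouts and 5.68 and 5.04 CPM in controls, with overlapping groups. Its log2 fold change was -0.35 ± 0.32 (edgeR adjusted p = 0.70; 95% interval -1.13 to 0.44). It was -0.050 without knockout 1 and -0.71 without knockout 2.

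The 250 bases before the RefSeq start of the pathway's own targets Ptch1 and Hhip are shown because GLI factors can act through such regions (GRCm38.p6, minus strand, chr13:63565736-63565985 for Ptch1 and chr8:80058009-80058258 for Hhip). The Ptch1 window lies within the bounds of the annotated gene given above. Capitals mark the stretch closest to the GLI consensus GACCACCCA on either strand, which differs from it at 3 positions in Ptch1 and at 2 in Hhip.
Ptch1: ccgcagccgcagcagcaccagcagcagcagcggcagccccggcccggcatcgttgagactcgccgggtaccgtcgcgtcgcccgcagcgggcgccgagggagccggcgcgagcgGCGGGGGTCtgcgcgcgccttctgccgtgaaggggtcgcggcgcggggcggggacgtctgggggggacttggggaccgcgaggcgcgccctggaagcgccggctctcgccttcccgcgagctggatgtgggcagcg
Hhip: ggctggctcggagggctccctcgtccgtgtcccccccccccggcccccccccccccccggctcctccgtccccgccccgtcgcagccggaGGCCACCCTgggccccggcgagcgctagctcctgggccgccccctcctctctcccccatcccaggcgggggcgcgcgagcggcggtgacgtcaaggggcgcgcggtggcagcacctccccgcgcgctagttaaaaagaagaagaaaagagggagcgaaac
A stretch as close as that of Hhip is found in 51.8% of 32851 mouse promoters and one as close as that of Ptch1 in 98.6%, so both are common. The exact consensus was in 0 of the 6 members with a promoter in the table (Ptch1, Smo, Gli2, Gli3, Hhip and Gas1) and in 0.225% of all promoters, counted over both strands and 250 bases. Its shorter core CCACCCA, which the consensus contains, was in 0 of the 6 members and in 8.11% of all promoters.

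The coreceptors were the abundant members. Gas1, a membrane-anchored protein that binds the ligand (ENSMUSG00000052957, chromosome 13, 60174405 to 60177365, a gene of 1 exon), measured 765 and 895 CPM in knockouts against 704 and 772 CPM in controls. The groups overlapped, by a narrow margin at knockout 1 and control 2. Its log2 fold change was 0.17 ± 0.14 (edgeR adjusted p = 0.66; 95% interval -0.16 to 0.50), and it ranged from 0.053 to 0.28 with each library left out.

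Boc, a coreceptor of the immunoglobulin superfamily (ENSMUSG00000022687, chromosome 16, 44485049 to 44558897), measured 461 and 362 CPM in knockouts against 516 and 614 CPM in controls. Both knockouts lay below both controls. The mean was 412 ± 70 CPM in knockouts and 565 ± 69 CPM in controls (SD, n = 2 each). The log2 fold change was -0.46 ± 0.17, a ratio of 0.729, with an unadjusted 95% interval from -0.86 to -0.05. It did not pass the test over all genes (edgeR adjusted p = 0.43), and its adjusted p ran from 0.11 to 0.97 over 12 refits. The log2 fold change was -0.29 without knockout 2 and -0.30 without control 2. Gas1 per kilobase was 2.50 and 3.71 times Boc in knockouts and 2.05 and 1.89 times Boc in controls. Fewer cells with a transcript and less of it per cell cannot be told apart in these bulk samples.

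**Figure D2:**
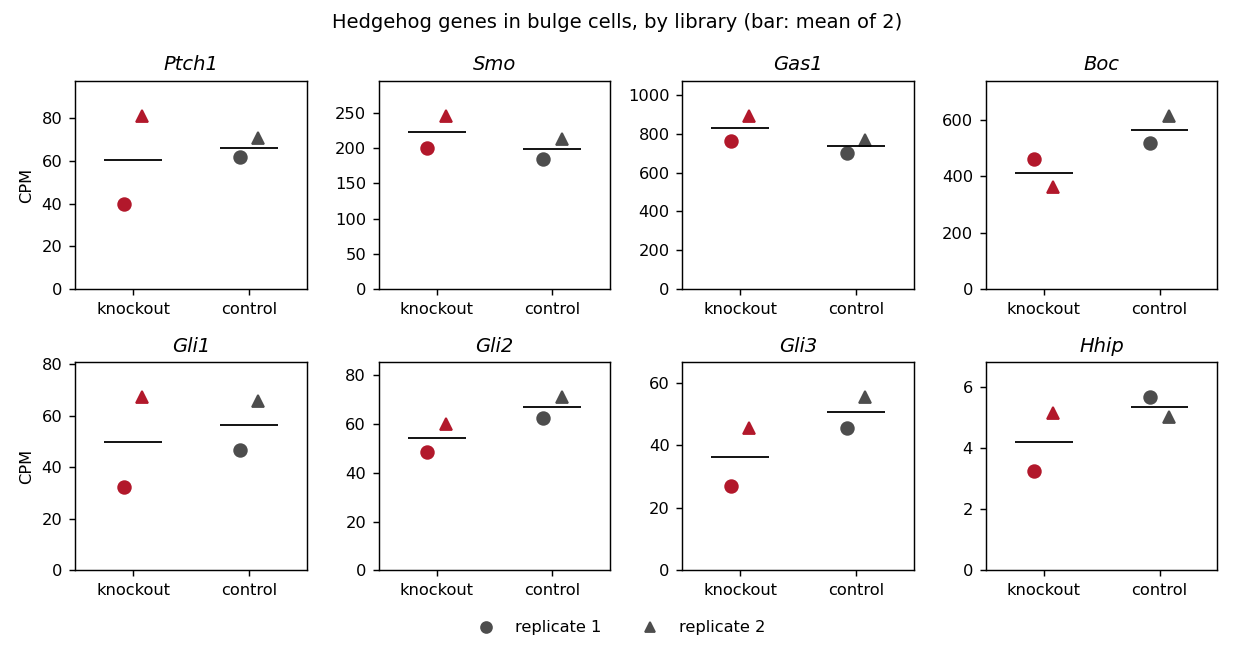
CPM of the 8 tested hedgehog genes in each library (vertical axes from 0), knockouts in red on the left and controls in grey on the right, circles for replicate 1, triangles for replicate 2, and a bar at the mean of 2. Both knockouts lie below both controls for Boc, Gli2 and Gli3. For Ptch1 and Gli1, knockout 1 is lowest (39.9 and 32.4 CPM) and knockout 2 highest (81.1 and 67.1 CPM).

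Of the GLI factors, Gli1, an activator and target of the pathway (ENSMUSG00000025407, chromosome 10, 127329882 to 127341974), measured 32.4 and 67.1 CPM in knockouts against 46.8 and 65.5 CPM in controls. Like Ptch1, it had its lowest and its highest value in the knockouts. Gli1 gave -0.18 ± 0.35 on the log2 scale (edgeR adjusted p = 0.87; 95% interval -1.02 to 0.67), and it was 0.25 without knockout 1, -0.80 without knockout 2 and 0.11 without control 2, none of which passed.

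Gli2, the main activator in many tissues (ENSMUSG00000048402, chromosome 1, 118834132 to 119053619), measured 48.4 and 60.1 CPM in knockouts against 62.6 and 71.0 CPM in controls. The groups did not overlap, though knockout 2 and control 1 differed little. Its difference on the log2 scale was -0.30 ± 0.15 (edgeR adjusted p = 0.51; 95% interval -0.68 to 0.08). It was -0.15 without knockout 1, -0.47 without knockout 2 and -0.18 without control 2.

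Gli3, the main repressor in the absence of ligand (ENSMUSG00000021318, chromosome 13, 15463235 to 15730026), measured 27.0 and 45.5 CPM in knockouts against 45.6 and 55.4 CPM in controls. Knockout 2 and control 1 were almost equal, so the groups just failed to overlap. The difference was -0.48 ± 0.26 on the log2 scale (edgeR adjusted p = 0.52; 95% interval -1.11 to 0.15). It was -0.15 without knockout 1, -0.90 without knockout 2 and -0.31 without control 2. Of the 8 members, 3 (Boc, Gli2 and Gli3) had both knockouts below both controls, against 23.6% of all tested genes, and 0 had both above, against 21.3% of all tested genes.

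Within the GLI family the shares of Gli1 and Gli2 overlapped between the groups. Per kilobase, Gli1 made up 39.7% and 49.9% of the summed GLI level in knockouts and 40.3% and 44.9% in controls. Gli2 made up 43.1% and 32.5% in knockouts and 39.2% and 35.4% in controls, and Gli3 17.2% and 17.6% in knockouts and 20.5% and 19.8% in controls. The Gli3 share was lower in both knockouts than in both controls, by a few percentage points. The summed level itself was 16.4 and 26.9 CPM per kilobase in knockouts and 23.2 and 29.2 in controls.

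**Figure D3:**
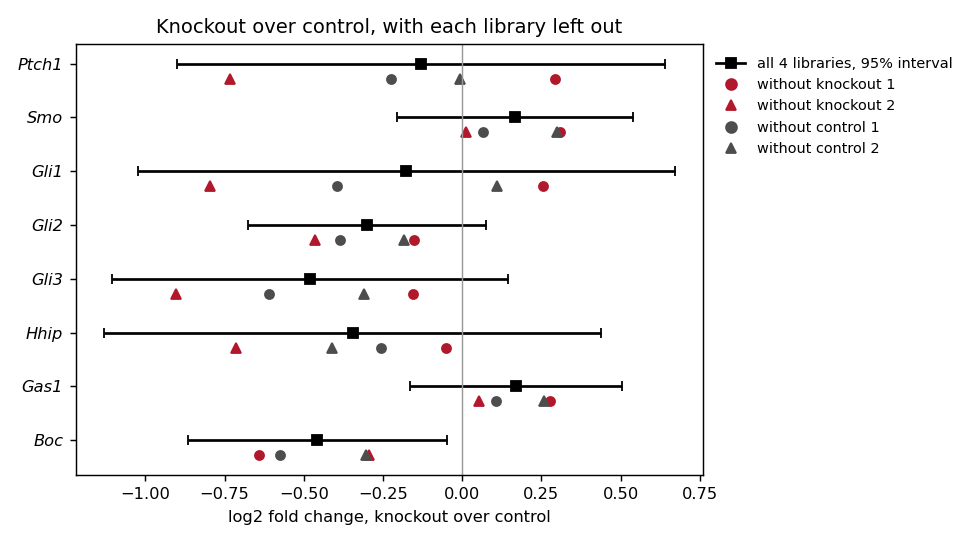
Log2 fold change of knockout over control for the 8 tested genes (black squares, 95% intervals from edgeR), with the value after leaving out each library below (red for a knockout, grey for a control). The intervals of all genes except Boc (-0.86 to -0.05, unadjusted) include 0, and the values of Ptch1 and Gli1 change sign when knockout 1 is left out, that of Gli1 also when control 2 is.

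The pathway's readout genes varied mainly between the 2 knockout libraries. Tested genes in general also differed more there, with a median absolute log2 ratio of 0.27 between knockouts and 0.16 between controls. Ptch1 was 2.03 times and Gli1 2.07 times as high in knockout 2 as in knockout 1, against 1.15 and 1.40 times between control 2 and control 1. Of all tested genes, 4.53% had at least the ratio of Ptch1, knockout 2 over knockout 1, and 4.42% at least that of Gli1. Genes that differed as much in the other direction were not counted. Gli3 was 1.68 times and Hhip 1.58 times as high in knockout 2 as in knockout 1, whereas Boc was 0.786 times as high. Knockout 1 held the lowest value of 5 of the 8 members (Ptch1, Gli1, Gli2, Gli3 and Hhip) and of 26.2% of all tested genes. Per kilobase, Gli1 was 2.31 and 2.35 times Ptch1 in knockouts and 2.15 and 2.63 times Ptch1 in controls, so their ratio varied less than either gene.

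Other cell types of the skin also express these genes, and their markers ranged from absent to levels above those of Gli1 and Ptch1. On the list for dermal papilla and fibroblasts, 14 of 15 genes had a count. Their summed level was 156 and 158 CPM in knockouts and 203 and 250 CPM in controls, most of it from Col1a1 and Col1a2. Col1a1 and Col1a2 had log2 fold changes of -0.69 and -0.52. Of the 8 tested genes of the list, 4 were above 0 and 4 below (median 0.06). The fibroblast receptor Pdgfra measured 1.19 and 2.11 CPM in knockouts and 1.44 and 2.13 CPM in controls. The fibroblast matrix gene Lum was at most 0.0479 CPM in any library, and Twist2 was at 0 in all. Per kilobase and over the 4 libraries, the level was 16.4 CPM for Col1a1, 11.1 for Crabp1, 4.89 for Col1a2 and 0.171 for Pdgfra, against 10.6 for Gli1 and 4.46 for Ptch1. Some genes of the list thus stood at or above the members and others far below. Schwann and nerve genes (10 of 10 with a count) summed to 119 and 174 CPM in knockouts and 175 and 129 CPM in controls, most of it from Erbb3, which averaged 18.2 CPM per kilobase. Blood endothelial genes (10 of 10 with a count) summed to 6.11 and 18.5 CPM in knockouts and 15.1 and 7.21 CPM in controls. Melanocyte genes summed to 86.2 and 90.0 CPM in knockouts and 114 and 134 CPM in controls. Most of that sum was Mitf, with 71.5 and 74.5 CPM in knockouts and 103 and 117 CPM in controls, while Dct and Kit had log2 fold changes of 0.28 and 0.99. The median centred log2 CPM of the tested melanocyte genes was 0.09 and -0.11 in knockouts and -0.47 and 0.39 in controls, with overlapping groups.

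Some of these lists shared the order of Ptch1 and Gli1 between the knockouts. Centred log2 CPM of the tested papilla and fibroblast genes had a median of -0.39 in knockout 1 and 0.25 in knockout 2, and -0.07 and -0.01 in controls 1 and 2. For Schwann and nerve genes it was -0.25 and 0.25 in knockouts and 0.05 and -0.08 in controls. For bulge keratinocyte genes it was -0.13 and 0.04 in knockouts and -0.04 and 0.07 in controls. The melanocyte list above and the sebaceous and upper follicle list (0.17 in knockout 1, -0.09 in knockout 2) had the reverse order. Knockout 1 held the lowest value of 7 of 14 bulge keratinocyte, 3 of 8 papilla and fibroblast and 3 of 9 Schwann and nerve genes. The same held for 3 of 5 blood endothelial, 1 of 7 immune and 1 of 11 sebaceous and upper follicle genes, against 26.2% of all tested genes. The part of these compartments in the Ptch1 and Gli1 values was not tested. The list of G2/M genes was likewise lower in knockout 2 than in knockout 1, with medians of -0.56 and -0.27, against 0.72 and 0.11 in controls 1 and 2. All 20 genes of that list had a log2 fold change below 0 (median -0.94). The G2/M sum was 67.5 and 53.3 CPM in knockouts and 137 and 89.6 CPM in controls. This sum, Mitf and the papilla and fibroblast sum, mostly Col1a1 and Col1a2, were thus lower in both knockouts than in both controls. The tested papilla and fibroblast genes as a list were split in direction (median log2 fold change 0.06). Boc, Gli2 and Gli3 were also lower in both knockouts. The part of these sums and of Mitf in the values of these 3 members was not tested.

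**Figure D4:**
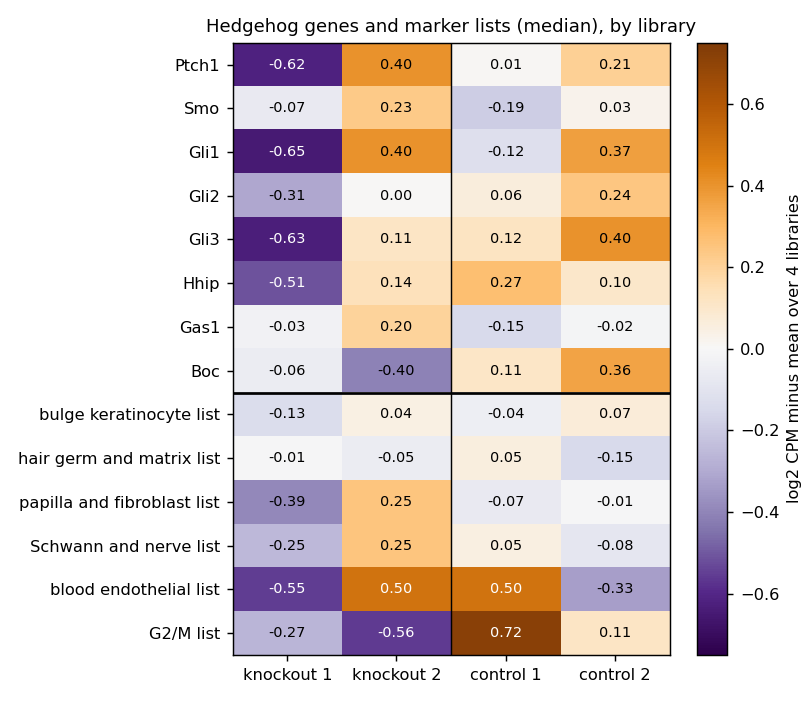
Log2 CPM minus the gene's mean over 4 libraries for the 8 tested hedgehog genes (above the line) and the median of the same for 6 marker lists (below it), with knockouts in the left columns and controls in the right. Ptch1, Gli1 and Gli3 are lowest in knockout 1 (-0.62, -0.65 and -0.63). The lists for papilla and fibroblasts (-0.39), blood endothelium (-0.55), Schwann cells and nerve (-0.25) and bulge keratinocytes (-0.13) are also lowest there. The hair germ and G2/M lists are not. Nor are the lists that are not drawn, with knockout 1 at 0.09 (melanocyte), 0.07 (immune), 0.17 (muscle) and 0.17 (sebaceous and upper follicle).

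By distance between centred log2 CPM over the 4 libraries, the 3 genes most like Gli1 among 10818 were Zfp937 (distance 0.14), Cep112 (0.14) and Fbxl7 (0.15), and Ptch1 ranked 6th (0.21). The 3 most like Ptch1 were Lpin1 (0.12), Magi2 (0.12) and Slc22a17 (0.14), and Gli1 ranked 15th. This likeness rests on 4 libraries and was not tested.

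The wider pathway was read from 5 lists. In the edgeR test 0 genes of any of them passed, against 0.00701% of all genes, and DESeq2, limma-voom and the block fit also called 0. Without a count filter, where edgeR called 1.79% of all genes, 5 genes of these lists passed. That fit had infinite median prior degrees of freedom, against 4.17 in the main fit. For most genes it thus gave no weight to the gene's own spread between libraries, so its calls are less strict on replicates that differ.

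Of ligand making and release, 5 of 8 genes were tested, and 3 had a log2 fold change above 0 and 2 below (median 0.05). Disp1, which exports the lipid-modified ligand, measured 9.51 and 11.2 CPM in knockouts against 15.1 and 16.8 CPM in controls (log2 fold change -0.62 ± 0.20, edgeR adjusted p = 0.43). Scube2, a secreted carrier of the ligand, measured 40.5 and 41.2 CPM in knockouts against 49.9 and 49.7 CPM in controls (-0.29 ± 0.12, edgeR adjusted p = 0.47). Scube3, its relative, gave 0.62 ± 0.34 (edgeR adjusted p = 0.53). Both knockouts lay below both controls for 2 of the 5 (Disp1 and Scube2), against 23.6% of all tested genes. They lay above for 2 (Scube3 among them), against 21.3%. Of the 5 genes, 1 (Disp1) had an unadjusted p under 0.05.

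Of the other receptors and surface regulators, 6 of 10 genes were tested, 3 above 0 and 3 below (median -0.02). Cdon, the coreceptor most closely related to Boc, measured 134 and 94.7 CPM in knockouts against 173 and 213 CPM in controls. As for Boc, knockout 2 was lowest, control 2 highest, and the groups did not overlap. Its log2 fold change was -0.75 ± 0.20, a ratio of 0.594 (edgeR adjusted p = 0.43). It passed without a count filter (-0.76, edgeR adjusted p = 0.00016). Lrp2, Ptchd1 and Hhatl had 0 counts in all libraries.

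Of the cytoplasmic and nuclear transducers, 29 of 30 genes were tested, 10 above 0 and 19 below (median -0.10). Spop, an adaptor that targets GLI proteins for degradation, measured 221 and 262 CPM in knockouts against 185 and 187 CPM in controls (0.37 ± 0.13, edgeR adjusted p = 0.43). Dzip1, a ciliary protein, gave -0.43 ± 0.17 (edgeR adjusted p = 0.45), and the ubiquitin ligase scaffold Cul1 0.26 ± 0.12 (edgeR adjusted p = 0.48). Prkar1a, a regulatory subunit of protein kinase A, gave 0.039 ± 0.13. Sufu and Kif7, which hold GLI proteins in check, gave -0.13 and -0.14 (edgeR adjusted p = 0.76 and 0.77), and were named after their values were seen. Both knockouts lay below both controls for 8 of the 29 and above for 6, close to the 23.6% and 21.3% of all tested genes. Once a length and GC trend was removed, the median of this list was 0.056, close to the 0.047 of all tested genes.

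Of the cilium transport genes, all 31 were tested, 10 above 0 and 21 below (median -0.14). Both knockouts lay below both controls for 14 of the 31, against 23.6% of all genes, and above for 5, against 21.3%. At an unadjusted p under 0.05, 6 of the 31 had lower values in knockouts and 2 higher, against 5.94% and 4.8% of all genes. Dync2h1, the heavy chain of the motor for transport towards the cell body, measured 20.7 and 19.5 CPM in knockouts against 29.3 and 34.4 CPM in controls (-0.67 ± 0.15, edgeR adjusted p = 0.43). Bbs1, of the complex that carries membrane proteins of the cilium, gave -0.63 ± 0.19, and Ift172, of the particle that moves towards the tip, -0.45 ± 0.14 (both edgeR adjusted p = 0.43). Ift20 and Ift57, the members of highest level per kilobase, gave 0.17 ± 0.18 and -0.18 ± 0.17. Dync2h1 and Ift80 (-0.62) passed without a count filter (edgeR adjusted p = 0.027 and 0.022).

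**Figure D5:**
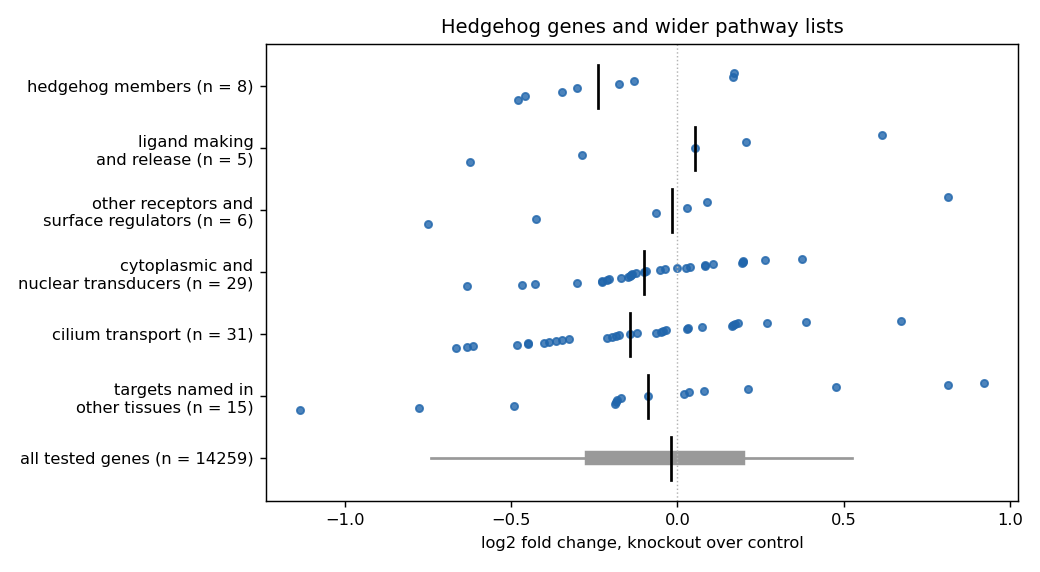
Log2 fold change of knockout over control for each tested gene of the hedgehog members and of 5 wider lists (points), with a bar at each median. For all 14259 tested genes the thick grey bar spans the interquartile range, the thin line the 5th to 95th percentiles, and the black bar the median (-0.02). The members have a median of -0.24 and the cilium list -0.14, and the points lie within the spread of all genes for the most part.

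Of genes named as targets in other tissues, 15 of 25 were tested, 7 above 0 and 8 below (median -0.09). Igfbp6, a binding protein of insulin-like growth factors, measured 97.1 and 179 CPM in knockouts against 70.5 and 75.3 CPM in controls (0.92 ± 0.28, edgeR adjusted p = 0.43). It passed without a count filter (edgeR adjusted p = 2.1e-06), under the limit of that fit given above. Without knockout 1 its log2 fold change was 1.30. Ccnd2, a cyclin of the entry into the cell cycle, measured 112 and 91.2 CPM in knockouts against 140 and 146 CPM in controls (-0.49 ± 0.14, edgeR adjusted p = 0.43), and passed without a count filter (edgeR adjusted p = 0.0499). Foxm1, a factor of dividing cells, gave -0.78 ± 0.41 (edgeR adjusted p = 0.52). Sfrp1 and Sostdc1, secreted WNT inhibitors that were the most abundant of the list per kilobase, gave -0.18 ± 0.19 and 0.08 ± 0.21. Foxf1, Nkx2-2 and Nkx6-1, targets in other organs, had 0 counts in all libraries.

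The median exon length of the 8 tested members was longer than that of other genes, at 6245 bases, against 4180 for all tested genes. With a trend on length and GC content removed, the members' median was -0.15, against 0.05 for all genes, and Ptch1, the longest member, gave 0.076. Antisense genes share exon bases with Gli1, Gli3, Gas1, Shh and Hhip. Of these partners, Arhgap9, which shares 62 bases with Gli1, had between 138 and 206 counts. The partners of Gas1 and Gli3 had at most 59 and 78 counts. No source used here says whether counting used strand, so reads in shared bases cannot be assigned to one gene of such a pair.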

How the data were processed

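RNA of bulge cells was taken up in TRIzol, and libraries were directional and polyA-selected, per the labels' protocols. The deposited table holds raw counts for each gene, which the authors made with Trim Galore 0.6.0, cutadapt, FastQC, STAR 2.7.0e and DESeq2 1.26.0 on GRCm38 (mm10), per the submitters' processing notes. The counting tool, strand setting and annotation release are stated in no source used here. Identifiers were matched to GENCODE M21 (GRCm38), which gave symbols, coordinates and exon lengths. Promoters are from RefSeq (GRCm38.p6).

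With R 4.3.3, genes were kept by filterByExpr, and knockout and control were compared with edgeR 4.0.16 (TMM, robust quasi-likelihood test, no covariates, Benjamini-Hochberg over all tested genes, threshold 0.05). CPM used effective library sizes. Log2 CPM used a prior count of 2. SE is the log2 fold change divided by the root of the F statistic. The common biological coefficient of variation was 19.2%. The edgeR step was also run on simulated data. The outcome is not reported here, so recovery of changes as small as those of the members is not shown. Refits used upper-quartile or RLE normalization, no filter, at least 50 counts in 2 libraries, DESeq2 1.42.0, limma-voom (limma 3.58.1), a block for replicate number, omission of each library in turn, and removal of a length and GC trend (splines with 4 degrees of freedom).

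The members and all gene lists were chosen with earlier results of these data known. All members were named. From each wider list the genes past the threshold were named, or, as none passed, the 3 of smallest p and the 2 of highest CPM per kilobase, with any gene an alternative called. Some genes that this rule takes are not reported here. Likeness was sought among genes of at least 2 CPM, leaving out predicted genes, pseudogenes and sex chromosomes. Marker genes were described by their list and by defining members. In sums of a marker list, all genes found in the table were counted.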

Additional observations from a re-analysis of the deposited data

How the results depend on the processing

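Over all genes, edgeR without a count filter called 163 genes higher and 267 lower, DESeq2 33 and 68, and edgeR with a block for replicate number 25 and 81. After removal of the length and GC trend, 2 were called higher and 0 lower. Leaving out each library gave between 1 and 15 higher and between 0 and 6 lower. The replicate number is not said to mark a pairing, and same-numbered libraries deviated together only weakly (correlation 0.12 over genes). The block changed no call among the hedgehog genes or the wider lists. Without a count filter, 1 gene of the other receptors, 2 of the cilium list and 1 of the targets were called lower and 1 of the targets higher. Leaving out each library gave between 0 and 1 target called higher. No member was called in any of the 12 refits.

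Ptch1 changed sign with the trend removed (0.076) and ranged from -0.73 to 0.29 over the left-out libraries. Gli1 ranged from -0.80 to 0.25. Smo, Gli2, Gli3, Hhip, Gas1 and Boc kept their sign in all refits. Among other named genes, these ranges over left-out libraries included both signs: Prkar1a (-0.084 to 0.15), Ift20 (-0.073 to 0.39), Ift57 (-0.36 to 0.045), Sfrp1 (-0.40 to 0.10) and Sostdc1 (-0.21 to 0.32). The cause was not tested. With 2 libraries per group, a lone library left in a group is assumed to vary like the other group.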
